A study of Mus musculus with 9 samples.

Results

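Gene expression in the cerebella of SmoA2 mice was compared with that of wild-type mice at postnatal day 5, on 3 arrays of each group out of the 9 arrays of the series. The comparison covered 19147 genes, all those that carry a single symbol, and of several probe sets for a gene the one brightest on average (mean log2 intensity of the 9 arrays) was read. The labels give the tissue as brain and the series' design text as cerebellum, all from strain C57BL/6. SmoA2 mice carry a transgene for an activated form of Smoothened under a fragment of the promoter of Neurod2 (ND2) that is active in granule neuron precursors, and the wild-type mice are their age-matched controls. The remaining group, labelled Smo/Smo, entered only the estimate of the spread and the choice of probe set. The labels give each array a code of its own and name no litter or batch, so that replicate numbers here follow the order of deposit and pair no arrays. They do not state that each is a separate animal, so the p-values measure the spread between these samples, which may in part be technical.

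Sonic hedgehog (Shh), released by Purkinje cells, drives the division of granule neuron progenitors in the outer layer of the young cerebellum. Its signal passes from the receptor Ptch1 through the membrane protein Smoothened to the Gli transcription factors. The remaining cells of the organ have other origins: GABAergic neurons come from the Ptf1a-positive ventricular zone, Bergmann glia guide the migrating granule neurons, and the meninges, which make retinoic acid and the chemokine Cxcl12, cover the surface. RNA of the whole organ was measured, so that fewer cells of a type and less RNA per cell cannot be told apart in any result given here.

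Markers of cerebellum were detected on all arrays. None of 15 genes of the cerebellar region, among them Zic1, En2 and Pax6, was within background. Their mean log2 level lay between 10.75 and 10.78 on the wild type arrays. On the SmoA2 arrays it was lower, between 10.46 and 10.62, so that the groups did not overlap. Of the 15 genes, 12 had a negative log2 fold change and 3 a positive one, with a median of -0.15. Calls were made for 3 of them, all lower in SmoA2. Of 13 genes of forebrain and midbrain, 7 lay within background in both groups. Background was read from Y-linked probe sets in the female mice, which gave log2 intensities of 2.23 to 5.57. By their sex-linked probe sets, wild type held 1 male and SmoA2 2 males, the other arrays being from females. With sex as a covariate 366 genes were called, 345 of them among the 515 called without it. The probe set of Smo measured 8.70, 8.62 and 8.79 in wild type and 8.38, 8.40 and 8.83 in SmoA2, groups that overlap (log2 fold change -0.17 ± 0.11, SE, adjusted p = 0.545), and it is not known whether it matches the transgene. Neurod2 read 12.48, 12.57 and 12.47 in wild type and 12.35, 12.36 and 12.30 in SmoA2 (adjusted p = 0.172). Atoh1, the bHLH factor that defines granule neuron progenitors, read 9.76, 9.63 and 9.61 in wild type and 10.57, 10.37 and 10.52 in SmoA2. Its SmoA2 arrays all lay above those of wild type, a rise of 1.77-fold (adjusted p = 0.000703). Gli1, which the pathway itself induces, rose 1.41-fold (adjusted p = 0.00801) and Ptch1 1.20-fold (adjusted p = 0.0371). Any 1 array left out ended the call of Ptch1 (highest adjusted p 0.123). Without both replicates numbered 3, no call was made for Gli1 (adjusted p = 0.0775).

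In limma, 515 of the 19147 genes (2.69%) passed an adjusted p of 0.05 over all genes, and these are the genes said to be called, to rise or to fall. Of these, 184 were higher in SmoA2 (0.961%) and 331 were lower (1.73%). Most changes were small: 100 of the rises and 227 of the falls were under 1.5-fold, while 31 rises and 18 falls reached 2-fold. The median log2 fold change was 0.55 among the rises and -0.48 among the falls, beside 0.0059 over all genes, where the 5th percentile was -0.28 and the 95th 0.26. In all 515 genes the 3 arrays of a group lay above all 3 of the other, an order that held in 19.1% of all genes, called or not. For 195 genes the call held whichever of the 6 arrays was left out, 91 of them higher and 104 lower, and 146 of them were also called when both replicates numbered 3 were dropped. Rises and falls were spread over the genome, with between 1.33% (chromosome 17) and 4.27% (chromosome 10) of the genes of an autosome called. No Y-linked gene was called. The shares over all genes include 6150 genes that lay within background in both groups. With only genes above background, 766 of 12847 were called, 503 of them lower. Over all the lists compared below, 157 of 1362 measured genes were called.

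**Figure D1:**
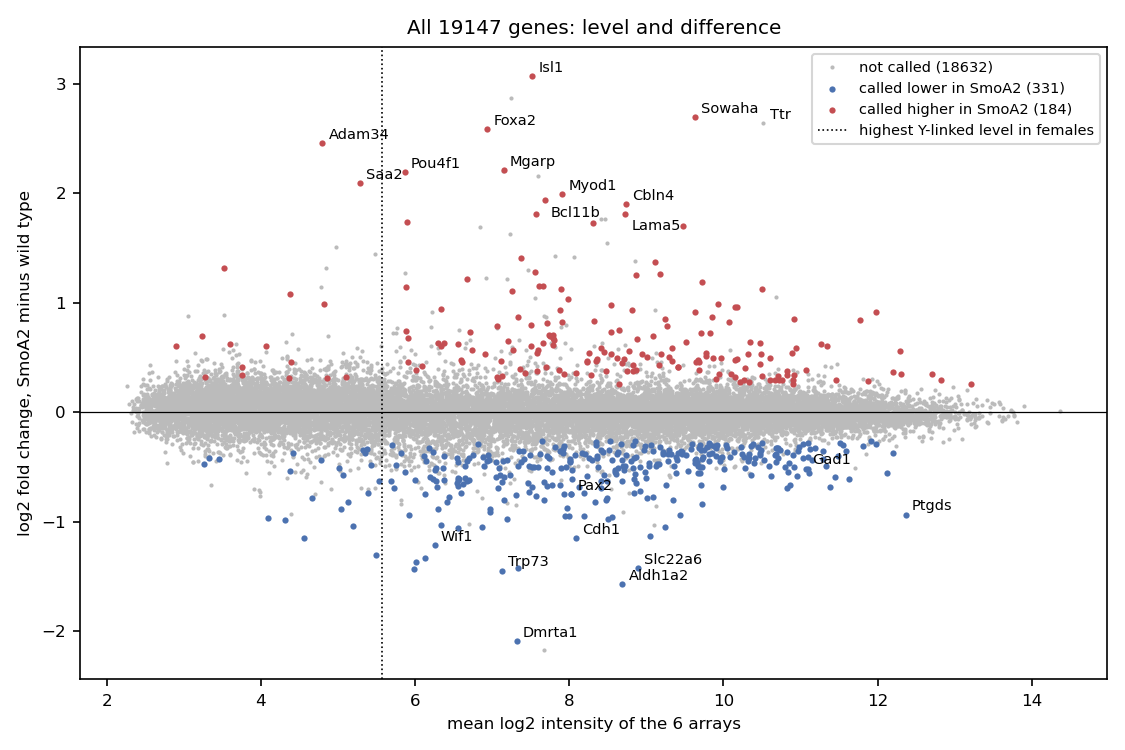
Each point is 1 of 19147 genes, with the mean log2 intensity of the 6 arrays on the x axis and the log2 fold change, SmoA2 minus wild type, on the y axis. Red and blue points are the 184 genes called higher and the 331 called lower, and grey points were not called. The dotted line marks 5.57, the highest level of a Y-linked probe set in a female mouse. Among called genes the largest rise is that of Isl1 and the largest fall that of Dmrta1.

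Among the largest rises were those of Isl1, Foxa2, Myod1, Pou4f1 and Bcl11b, transcription factors known from other cell types. Isl1, which specifies motor and sensory neurons, gave log2 values of 6.01, 6.15 and 5.79 in wild type and 9.23, 8.75 and 9.18 in SmoA2. Foxa2, a forkhead factor of the floor plate and of endoderm, read 5.80, 5.68 and 5.47 in wild type and 7.87, 8.21 and 8.61 in SmoA2. Both were near background in every wild type array and more than 2 log2 units higher in every SmoA2 array, with rises of 8.40-fold (log2 fold change 3.07 ± 0.14, adjusted p = 1.06e-05) and 6.00-fold (2.58 ± 0.26, adjusted p = 0.0013). Myod1, which commits cells to skeletal muscle, read 6.78, 6.92 and 7.04 in wild type and 8.90, 8.78 and 9.04 in SmoA2, a rise of 3.98-fold. Pou4f1, a factor of sensory neurons, read 4.76, 5.24 and 4.32 in wild type and 7.08, 6.88 and 6.92 in SmoA2 and rose at least 4.57-fold, its wild type level being within background. Bcl11b, a zinc finger factor of forebrain projection neurons and T cells, read 6.77, 6.75 and 6.62 in wild type and 8.79, 8.61 and 8.54 in SmoA2, and its other probe set rose as well (log2 fold change 1.39). None of the 3 wild type arrays reached the level of any SmoA2 array in these 5 genes. The second Isl1 probe set lay within background in both groups, with means of 4.17 and 5.21 (log2 fold change 1.04).

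Rises were also found in further factors of neurons and vessels. Sox18, a factor of endothelial cells, read 8.52, 8.68 and 8.45 in wild type and 9.81, 9.78 and 9.82 in SmoA2, a rise of 2.39-fold, while the 22 genes of endothelial and mural cells held no rise. Fezf2, a factor of cortical projection neurons, rose at least 1.67-fold, and Tshz2, a teashirt zinc finger factor, 1.65-fold. Lmo1, a LIM-only cofactor, rose 1.66-fold, Foxo6, a forkhead factor of neurons, 1.54-fold and Pou3f4, a POU factor of neural progenitors, 1.47-fold. Tlx3, which selects glutamatergic over GABAergic fate in the spinal cord, rose 1.60-fold from a wild type mean of 5.57, at the upper edge of background. Among called genes the largest fall was also that of a transcription factor, Dmrta1. It read 8.37, 8.25 and 8.48 in wild type and 6.40, 6.11 and 6.32 in SmoA2. Dmrta1 was 4.25-fold lower (-2.09 ± 0.09 on the log2 scale, adjusted p = 9.71e-06). Its groups were separated by a wide margin, with the lowest wild type array far above the highest SmoA2 array. The call of Tlx3 held, of the 6 fits with 1 array fewer, only in that without wild type replicate 2 (highest adjusted p 0.152). Leaving out both replicates 3 ended the call of Lmo1 (adjusted p = 0.0805), Foxo6 (adjusted p = 0.0779) and Pou3f4 (adjusted p = 0.0792).

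Most of the genes that act with these factors in their own tissues had no call. Of 30 skeletal muscle genes, Myod1 rose together with Cdh15, the cadherin of satellite cells and of cerebellar granule cells (2.22-fold), and Pax3 fell. The other 27 had no call, and the median of the list was -0.005. Myog, the myogenic factor downstream of Myod1, stayed within background on all 6 arrays (4.36, 4.42 and 4.48 in wild type and 4.73, 4.64 and 4.92 in SmoA2), and alpha-actin of muscle (Acta1) gave -0.15 ± 0.14 (adjusted p = 0.669). Muscle genes outside the list, chosen after their values were seen, moved in both directions. Klhl40 (log2 fold change 0.42), Jsrp1 (0.53) and Eno3 (0.26), which serve the sarcomere, the sarcoplasmic reticulum and muscle glycolysis, rose. Sypl2, a membrane protein of the muscle triad, fell on both of its probe sets (-1.42 and -1.69), and calsequestrin 2 (Casq2) fell by 0.40. With 1 array fewer, the threshold was missed by Pax3 without wild type replicates 2 or 3 or SmoA2 replicate 1 (highest adjusted p 0.0544) and Jsrp1 without wild type replicate 2 or SmoA2 replicate 3 (highest adjusted p 0.0657). The calls of Eno3 and Casq2 held, of the 6 fits with 1 array fewer, only in that without SmoA2 replicate 3 (highest adjusted p 0.132). The fit without both replicates 3 did not call Klhl40 (adjusted p = 0.0501).

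In the neural programmes, too, most genes had no call. The shares called were 5.26% for floor plate, 22.2% for motor neurons and 12.5% for sensory neurons, against 2.69% of all genes. Among 19 genes of the floor plate and ventral neural tube, Foxa2 was the only call, and its relative Foxa1 was within background in both groups. Shh itself, which Foxa2 activates in the floor plate, gave -0.44 ± 0.11 (adjusted p = 0.0737). Among 18 motor neuron genes Isl1, Chodl (1.88-fold) and Slit3 (1.29-fold) rose and Aldh1a2 fell, and the median was 0.06. Mnx1, the defining factor of motor neurons, lay at or below 3.34 on all 6 arrays, and the acetylcholine-synthesising enzyme Chat between 3.01 and 3.56, all within background. Of 24 sensory neuron genes, Isl1, Pou4f1 and Tlx3 rose and 21 had no call, with a median of 0.04. Among 13 genes of forebrain and midbrain, Fezf2 rose and Tbr1 fell, among 19 of hair cells Atoh1 rose and Slc17a8 fell, and none of 20 retinal genes was called (7 at an unadjusted p under 0.05 in limma). Of 32 Hox genes, which pattern the hindbrain and spinal cord, none was called in limma (7 at an unadjusted p under 0.05) and 28 lay within background in both groups. Each of the 6 fits without 1 array ended the call of Slit3 (highest adjusted p 0.134).

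**Figure D2:**
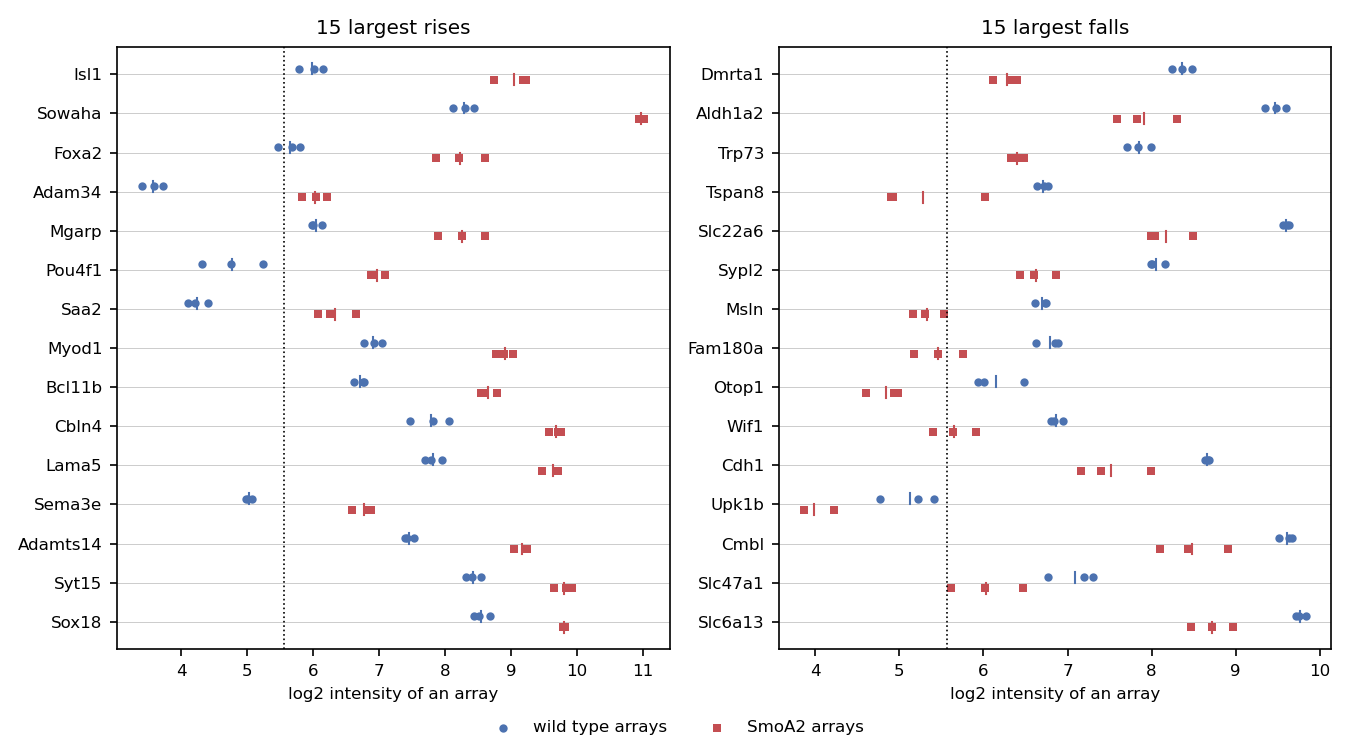
Log2 intensity of each array (x axis) for the 15 largest rises (left) and the 15 largest falls (right) among called genes with a full symbol; blue circles are the 3 wild type arrays, red squares the 3 SmoA2 arrays and short bars the group means. The groups do not overlap in any of these genes, and the dotted line at 5.57 shows which levels lie within background, such as Adam34, Pou4f1, Saa2 and Sema3e in wild type.

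Promoters of the called genes were searched for short motifs, those of Gli factors, through which Shh acts, and the E-box. Atoh1 and Myod1, which rose, are basic helix-loop-helix proteins, a family that binds E-boxes. Of 52 genes in the list of that family, 3 rose and 7 fell (19.23% called, against 2.69% of all genes). RefSeq sequence (GRCm38.p6), 250 bases before to 50 after each gene start, was at hand for 139 of the 184 genes called higher, 253 of the 331 called lower and 15275 of all genes. The Gli consensus GACCACCCA, on either strand, lay in 1 promoter of the genes called higher (0.72%), that of the predicted gene Gm11541, in 0 of those called lower and in 39 of all promoters (0.26%). Its shorter form CCACCCA, which the consensus contains, was found in 11.5%, 11.1% and 11.1% of them. The E-box CAGCTG, which reads the same on both strands, was held by 41 of the 139 genes called higher (29.5%), 49 of the 253 called lower (19.4%) and 2775 of all genes (18.2%). The median GC content of the promoters was 61.3% in genes called higher, 60% in genes called lower and 57.0% over all genes, and the genes had 1.32, 1.36 and 1.23 promoters on average. The difference in E-box share between these sets of genes was not tested. Of the 15 largest rises, 12 had a promoter and 2 of these, Isl1 and Pou4f1, held the E-box. That is no more than the share of all genes (18.2%). Both stretches are shown from 30 bases before the E-box, which is in capitals, to 30 bases after it.
Isl1, chr13:116309756-116309821, minus strand, E-box beginning 103 bases before the gene start: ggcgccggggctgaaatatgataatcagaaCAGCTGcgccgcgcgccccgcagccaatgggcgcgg
Pou4f1, chr14:104468082-104468147, minus strand, E-box beginning 118 bases before the gene start: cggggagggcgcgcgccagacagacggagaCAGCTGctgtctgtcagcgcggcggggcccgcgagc

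Other large rises were those of genes that encode no transcription factor. Sowaha, an ankyrin repeat protein, read 8.12, 8.30 and 8.44 in wild type and 10.95, 11.03 and 10.97 in SmoA2. It rose 6.48-fold, the second largest rise among called genes and one from a level well above background. Cbln4, a synapse-organising cerebellin, read 7.82, 8.07 and 7.47 in wild type and 9.76, 9.71 and 9.57 in SmoA2 and rose 3.73-fold, while Cbln1, Cbln2 and Cbln3 had no call. Lama5, a laminin chain of basement membranes, read 7.96, 7.79 and 7.70 in wild type and 9.71, 9.47 and 9.72 in SmoA2 and rose 3.52-fold. In each of these genes all SmoA2 arrays lay above all wild type arrays. Adamts14, a procollagen-processing protease, rose 3.30-fold, Syt15, a synaptotagmin, 2.59-fold, Mgarp, a mitochondrial protein, 4.64-fold and Gpr153, an orphan receptor, 2.18-fold. Lrig3, a membrane protein that modulates growth factor receptors, rose 1.98-fold and Shisa2, an endoplasmic reticulum protein that lowers Wnt and FGF receptors at the cell surface, 1.95-fold. Gpr153 and Shisa2 were chosen after their values were seen. Adam34, known from testis, rose at least 5.49-fold from a wild type level within background.

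Several factors of the GABAergic lineages, from different lists or from none, fell. Ptf1a, Neurog2, Neurod4, Tfap2c, Skor1 and Kirrel2 were chosen after their values were seen. In the bHLH list, to which Neurog1 belongs, 11 genes were higher and 11 lower on all SmoA2 arrays, called or not. Ptf1a, the bHLH factor that specifies the GABAergic neurons of the cerebellum, read 7.97, 8.21 and 8.13 in wild type and 7.76, 7.81 and 7.63 in SmoA2, and its SmoA2 arrays all lay below those of wild type. The proneural factors Neurog1 and Neurog2, which act in the same ventricular zone, were 1.60-fold and 1.41-fold lower, and Neurod4 1.93-fold lower. Prdm13, a target and partner of Ptf1a, read 8.66, 8.72 and 8.89 in wild type and 8.02, 8.06 and 8.12 in SmoA2 and was 1.61-fold lower (adjusted p = 0.00143). Pax2, which marks interneuron precursors, read 8.36, 8.43 and 8.42 in wild type and 7.65, 7.54 and 7.77 in SmoA2 and was 1.68-fold lower (adjusted p = 0.0008), while its other probe set, near background at a wild type mean of 5.99, gave -0.21. Tfap2a fell by 0.80 and Tfap2b, on all of its 3 probe sets, by 0.55 to 0.62 on the log2 scale, both AP-2 factors of the GABAergic lineage. Their relative Tfap2c fell by 0.56, the corepressor Skor1 by 0.94 and Kirrel2, an adhesion protein of GABAergic progenitors, by 0.58. The call of Ptf1a held, of the 6 fits with 1 array fewer, only in that without wild type replicate 1 (highest adjusted p 0.148). Without both replicates numbered 3, no call was made for Neurod4 (adjusted p = 0.0608) and Tfap2c (adjusted p = 0.0842).

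Of the genes of GABA synthesis and release, Gad1 and Slc32a1 fell. Gad1, which makes GABA, read 11.33, 11.21 and 11.44 in wild type and 10.82, 10.73 and 10.90 in SmoA2, a fall of 0.51 on the log2 scale (adjusted p = 0.00857), and its other probe set fell by 0.68. Slc32a1, the vesicular GABA transporter, was 1.38-fold lower (adjusted p = 0.0313). Gad2 (-0.50 ± 0.12, adjusted p = 0.0615) and the glycine transporter Slc6a5 (-0.57 ± 0.14, adjusted p = 0.0834) had no call, though their groups did not overlap. In all, 5 of 14 interneuron genes fell and none rose (35.7%, against 1.73% of all genes called lower), with a median of -0.42. Of the 14 genes, 11 had a negative and 3 a positive log2 fold change. Their mean level was 8.72, 8.74 and 8.75 on the wild type arrays and 8.39, 8.45 and 8.43 on the SmoA2 arrays, so that the groups did not overlap and the spread within a group was a small part of the distance between them. The median lay between -0.33 and -0.43 in the fits that left out 1 array, or both replicates numbered 3, with 3 or 4 genes called. Of the 26 GABA and glycine genes, 3 fell, and the third, Slc6a13, is the transporter of the meninges described below. No receptor for GABA or glycine was among them. The call of Slc32a1 held, of the 6 fits with 1 array fewer, only in that without SmoA2 replicate 3 (highest adjusted p 0.116).

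**Figure D3:**
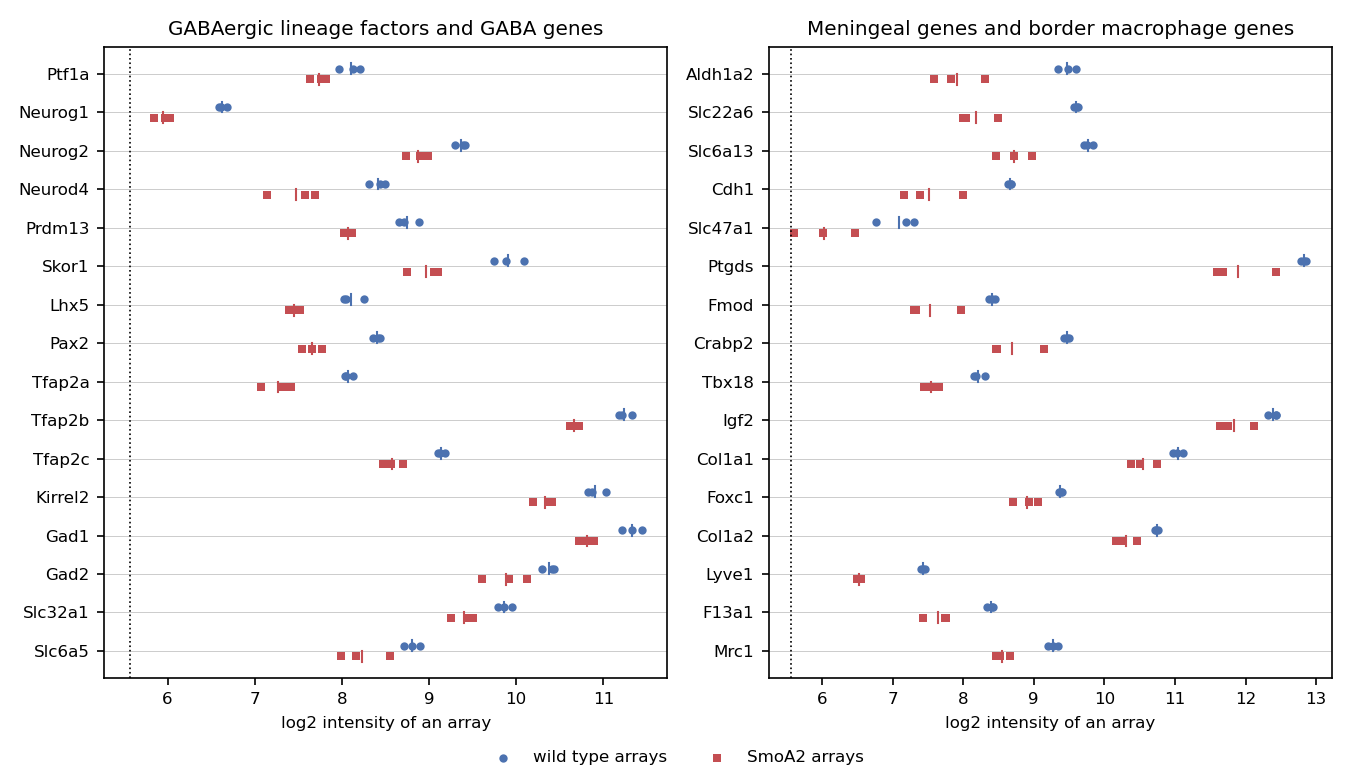
Log2 intensity of each array (x axis) for factors of the GABAergic lineages and genes of GABA and glycine handling (left) and for meningeal genes with the border macrophage genes Lyve1, F13a1 and Mrc1 (right), with wild type arrays as blue circles, SmoA2 arrays as red squares and group means as short bars. In the meningeal genes Ptgds, Fmod and Crabp2 the SmoA2 array nearest to wild type is replicate 2, and the groups do not overlap in any gene shown; Gad2 and Slc6a5 were not called.

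The calls among Purkinje cell genes were falls. Of 16 measured, 5 fell (31.2%, against 1.73% of all genes) and none rose, and 15 of the 16 had a negative log2 fold change, with a median of -0.37. The count was 2 without wild type replicates 1 or 2, 3 without SmoA2 replicate 1 and 9 without SmoA2 replicate 3, and 3 without both replicates 3, and 13 with an intensity trend, while the median stayed between -0.33 and -0.43. Pcp2, a protein of Purkinje cells, read 11.95, 11.96 and 11.87 in wild type and 11.28, 11.11 and 11.56 in SmoA2 and fell by 0.61. Lhx5, a LIM homeodomain factor of young Purkinje cells, read 8.03, 8.25 and 8.04 in wild type and 7.52, 7.40 and 7.43 in SmoA2 and fell by 0.66. Rora, the nuclear receptor that Purkinje cells need for survival, fell by 0.45, while Dab1, an adaptor in the reelin pathway, fell by 0.50, with a second probe set that fell by 0.39 and a dimmer one at -0.05. Each of these genes was lower in all 3 SmoA2 arrays. Calbindin (Calb1), a calcium-binding protein of Purkinje cells, gave -0.27 ± 0.06 (adjusted p = 0.0642), and the factor Foxp2 -0.44 ± 0.12 (adjusted p = 0.0959), neither of which was called. The mean level of the list was 9.89, 9.94 and 9.86 on the wild type arrays and 9.52, 9.47 and 9.56 on the SmoA2 arrays. Unipolar brush cells, a glutamatergic interneuron type, had 0 calls in limma among 8 genes (3 at an unadjusted p under 0.05) and a median of 0.11. The 15 genes of the cerebellar nuclei, the output neurons, had a rise of Pou3f4, a fall of Tbr1 and a median of 0.11. Fits with 1 array fewer did not call Pcp2 without wild type replicates 1 or 2 or SmoA2 replicate 1 (highest adjusted p 0.0657), Rora without wild type replicates 1 or 2 (highest adjusted p 0.0565) and Tbr1 without wild type replicates 2 or 3 or SmoA2 replicates 1 or 3 (highest adjusted p 0.0973). Leaving out both replicates 3 ended the call of Dab1 (adjusted p = 0.0579).

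Among 16 genes of granule neuron progenitors, Atoh1, Tlx3 and Boc, an Shh co-receptor (1.22-fold), rose (18.8%, against 0.961% of all genes) and none fell, with a median of 0.13. Called or not, 7 were higher and 5 lower on all SmoA2 arrays. The count of rises was 1 without wild type replicates 1 or 3, SmoA2 replicates 1 or 3, or both replicates 3. It was 2 without wild type replicate 2 or SmoA2 replicate 2. With only genes above background, 4 rose and 2 fell. Among 17 genes of granule neurons, only Grin2c, the NMDA receptor subunit of mature granule neurons, was called. It read 7.34, 7.30 and 7.36 in wild type and 7.96, 7.83 and 8.13 in SmoA2 and rose 1.55-fold (adjusted p = 0.0045), while the median of the list was -0.10. Cyclin D1 (Ccnd1) rose 1.95-fold and Cdk6 1.88-fold, the latter also on the other 2 probe sets well above background (log2 fold change 1.03 on each). Cdkn1c, an inhibitor of the cell cycle, fell by 0.39 and E2f2 by 0.42. None of the 33 genes of S phase and mitosis was called in limma, and 4 had an unadjusted p under 0.05. Their log2 fold changes lay between -0.15 and 0.25, with a median of 0.03, and the groups were separated in 4 genes with higher and 1 with lower SmoA2 levels. No call was made for Ccnd1 without wild type replicate 2 (highest adjusted p 0.0501) and E2f2 without wild type replicates 1 or 2 (highest adjusted p 0.0633). The call of Boc held, of the 6 fits with 1 array fewer, only in that without SmoA2 replicate 2 (highest adjusted p 0.13). The call of Cdkn1c held, of the 6 fits with 1 array fewer, only in that without SmoA2 replicate 3 (highest adjusted p 0.151).

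Calls among genes of Bergmann glia and astrocytes were falls as well. Of 26 Bergmann glia and astrocyte genes, 6 fell (23.1%, against 1.73% of all genes), with no rise, while the median was -0.08. The count was 3 without wild type replicates 1, 2 or 3, and 2 without both replicates 3, and 11 with an intensity trend. Wif1, a secreted Wnt inhibitor, read 6.94, 6.84 and 6.80 in wild type and 5.91, 5.64 and 5.39 in SmoA2 and was 2.32-fold lower (adjusted p = 0.00142). Gdf10, a growth factor of Bergmann glia, read 11.77, 11.66 and 11.79 in wild type and 11.12, 11.09 and 11.22 in SmoA2 and fell by 0.59. The connexin gene Gjb6 fell by 0.95 and Gjb2, its neighbour in the genome, by 0.83, and both are also connexins of the meninges. Among 20 genes of gap and tight junctions these 2 were the only falls, and 1 gene rose. The glutamate transporter Slc1a3 (-0.26 ± 0.07) and Hopx (-0.14 ± 0.07), genes of Bergmann glia, had no call (adjusted p = 0.122 and 0.405). The oligodendrocyte lineage gave 0 calls in limma among 17 genes (5 at an unadjusted p under 0.05), with a median of -0.11, and 13 genes of Schwann cells and neural crest gave a rise of Dhh within background (3.62, 4.0 and 3.66 in wild type and 4.24, 4.61 and 4.26 in SmoA2) and falls of Pax3 and Tfap2a. The call of Dhh held, of the 6 fits with 1 array fewer, only in that without wild type replicate 2 (highest adjusted p 0.147). The fit without both replicates 3 did not call Gjb6 (adjusted p = 0.0648) and Gjb2 (adjusted p = 0.0779).

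Of 27 genes of meninges and fibroblasts, 15 fell (55.6%, against 1.73% of all genes) and none rose, with a median of -0.44. Aldh1a2, the enzyme with which the meninges make retinoic acid, read 9.60, 9.35 and 9.48 in wild type and 7.83, 8.30 and 7.59 in SmoA2 and was 2.96-fold lower (-1.57 ± 0.15 on the log2 scale, adjusted p = 0.00114). Slc22a6, an organic anion transporter, read 9.57, 9.63 and 9.61 in wild type and 7.99, 8.50 and 8.04 in SmoA2 and was 2.69-fold lower (adjusted p = 0.000437). The GABA and taurine transporter Slc6a13 read 9.72, 9.75 and 9.84 in wild type and 8.47, 8.97 and 8.72 in SmoA2 and was 2.07-fold lower. Ptgds, a prostaglandin D synthase, read 12.79, 12.83 and 12.86 in wild type and 11.59, 12.42 and 11.67 in SmoA2. In Aldh1a2, Slc22a6, Slc6a13 and Ptgds the SmoA2 array nearest to wild type was replicate 2. The E-cadherin gene Cdh1 was 2.21-fold lower, the small proteoglycan Fmod 1.83-fold, the retinoid-binding protein Crabp2 1.71-fold and the mesenchymal factor Tbx18 1.58-fold. The call was lost for Cdh1 without wild type replicate 2 or SmoA2 replicate 1 (highest adjusted p 0.0584). The calls of Fmod, Crabp2 and Ptgds held, of the 6 fits with 1 array fewer, only in that without SmoA2 replicate 2 (highest adjusted p 0.12). Without both replicates numbered 3, no call was made for Tbx18 (adjusted p = 0.0602).

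On the whole list, mean levels were 9.81, 9.80 and 9.80 on the wild type arrays and 9.19, 9.51 and 9.22 on the SmoA2 arrays, so that SmoA2 replicate 2 lay between the other SmoA2 arrays and wild type. The median stayed between -0.39 and -0.52 in the fits without 1 array, but the number of falls was 4 without wild type replicate 2, 5 without SmoA2 replicate 3, 6 without wild type replicate 3 or SmoA2 replicate 1 and 7 without wild type replicate 1, and 3 without both replicates 3; it was 14 without SmoA2 replicate 2. The collagen genes Col1a1 and Col1a2 fell by 0.50 and 0.44 and the factor Foxc1 by 0.47. Of the 51 genes of interstitial matrix 5 fell and 3 rose, among the latter Fbln2 (1.35-fold), and the median was -0.15. The share called was 15.69%, against 2.69% of all genes. Of the 24 basement membrane genes, Lama5 rose, Nid2 (-0.34) and Lama1 (-0.32) fell, and the median was -0.13. In this list 12.5% were called. Mesothelin (Msln), a surface protein of mesothelial cells, read 6.61, 6.75 and 6.73 in wild type and 5.30, 5.53 and 5.17 in SmoA2 and was at least 2.57-fold lower, and Upk1b, a uroplakin, lay within background in both groups. With 1 array fewer, the threshold was missed by Foxc1 without wild type replicates 1, 2 or 3 or SmoA2 replicate 3 (highest adjusted p 0.0929). The calls of Col1a1, Col1a2 and Nid2 held, of the 6 fits with 1 array fewer, only in that without SmoA2 replicate 2 (highest adjusted p 0.156). The call of Lama1 held, of the 6 fits with 1 array fewer, only in that without wild type replicate 3 (highest adjusted p 0.13).

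Some transporter and retinoid genes fell, several of them shared with the meningeal list. Of 38 transporters of organic ions, amino acids and nucleosides, 10 fell (26.3%, against 1.73% of all genes) and none rose. Of the 10, 4 are also in the meningeal list. The count was 3 without wild type replicates 2 or 3, 5 without wild type replicate 1 and 6 without SmoA2 replicates 1 or 3, and 4 without both replicates 3. Slc7a2, which takes up cationic amino acids, read 10.60, 10.47 and 10.52 in wild type and 10.08, 9.91 and 10.08 in SmoA2 and fell by 0.51. Slc16a1, a carrier of lactate and ketone bodies, fell by 0.35, and the drug and cation transporter Slc47a1 by 1.05. Of 19 retinoid genes 4 fell (21.05%, against 1.73% of all genes) and none rose. The 4 were Aldh1a2, Crabp2, Aldh1a1 (-0.49) and the receptor Rxrg (-0.27). The median of the 19 was 0.04, and neither the Cyp26 enzymes, which degrade retinoic acid, nor the Rar receptors were called. Hormone and metabolite genes that fell, chosen after their values were seen, were Ptger3, a prostaglandin E receptor, by at least 0.74 to a level within background, Ass1, argininosuccinate synthase, by 0.98, and Scnn1a, a subunit of the epithelial sodium channel, by at least 0.94, also to a level within background. The leptin receptor gene Lepr, chosen in the same way, was 1.76-fold lower. Fits with 1 array fewer did not call Slc16a1 without wild type replicates 1, 2 or 3 (highest adjusted p 0.0829), Slc47a1 without wild type replicates 2 or 3 or SmoA2 replicates 1 or 3 (highest adjusted p 0.133), Aldh1a1 without wild type replicates 2 or 3 (highest adjusted p 0.0571), Ass1 without wild type replicates 1, 2 or 3 or SmoA2 replicate 1 (highest adjusted p 0.0951) and Lepr without wild type replicates 1 or 2 (highest adjusted p 0.0536). Any 1 array left out ended the call of Rxrg (highest adjusted p 0.157).

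Within the list of microglia and macrophages, 3 of 17 genes fell (17.65%, against 1.73% of all genes) and no other gene was called. All 3 are genes of macrophages at the border of the brain. Lyve1, a hyaluronan receptor of border macrophages, read 7.46, 7.42 and 7.41 in wild type and 6.52, 6.55 and 6.49 in SmoA2 and was 1.88-fold lower (adjusted p = 5.52e-05). Mrc1, the mannose receptor, read 9.34, 9.20 and 9.27 in wild type and 8.67, 8.46 and 8.52 in SmoA2 and was 1.65-fold lower (adjusted p = 0.000957), and F13a1, a coagulation factor subunit made by these cells, was 1.68-fold lower. The groups did not overlap in any of them, and a second F13a1 probe set close to background was at -0.14 and not called. Microglial P2ry12 gave 0.46 ± 0.12 (adjusted p = 0.0836), Aif1 0.41 ± 0.10 (adjusted p = 0.0856) and Cx3cr1 0.25 ± 0.10 (adjusted p = 0.307), and Csf1r lay between 8.85 and 9.03 on all 6 arrays. Cd163 (-0.31 ± 0.09, adjusted p = 0.143) and Pf4 (-0.05 ± 0.06, adjusted p = 0.786), other border macrophage genes, were not called. Myeloid genes outside the list that fell, chosen after their values were seen, were the lectin receptor Clec4a1 (by 0.61), Fgl2 (by 0.57) and the receptor Flt3 (by 0.39). Csf1, the growth factor of macrophages, fell by 0.45 on the probe set used, while the dimmer one was at -0.18 (adjusted p = 0.625 over all probe sets). None of 17 lymphoid and granulocyte genes, 8 erythroid genes or 18 genes of the interferon response was called in limma (1, 1 and 2 at an unadjusted p under 0.05), and 9 and 5 of the lymphoid and erythroid genes lay within background. No call was made for Flt3 without wild type replicates 1, 2 or 3 or SmoA2 replicate 1 (highest adjusted p 0.106). Leaving out both replicates 3 ended the call of F13a1 (adjusted p = 0.0501) and Csf1 (adjusted p = 0.055).

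Among 22 endothelial and mural genes, Vtn, a plasma protein made by pericytes, fell by 0.69, and the receptors Kdr and Tek fell by 0.30 and 0.29. These 3 falls were 13.6% of the list, against 1.73% of all genes. The median was -0.06, and Pecam1, Cdh5 and Cldn5, the defining genes of endothelium, were not called. Of 25 chemokines and cytokines, Cxcl12 and Csf1 fell (8.0%, against 1.73% of all genes). Cxcl12, with which the meninges hold granule neuron progenitors at the surface, read 11.10, 11.02 and 11.12 in wild type and 10.59, 10.69 and 10.57 in SmoA2 and fell by 0.46 on the probe set used. Its other probe sets gave -0.24 and -0.06, neither of which was called. The decoy receptor of Cxcl12, Ackr3, fell by 0.49. The call of Tek held, of the 6 fits with 1 array fewer, only in that without SmoA2 replicate 3 (highest adjusted p 0.126). Each of the 6 fits without 1 array ended the call of Kdr (highest adjusted p 0.125). The fit without both replicates 3 did not call Vtn (adjusted p = 0.0662) and Cxcl12 (adjusted p = 0.0554).

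**Figure D4:**
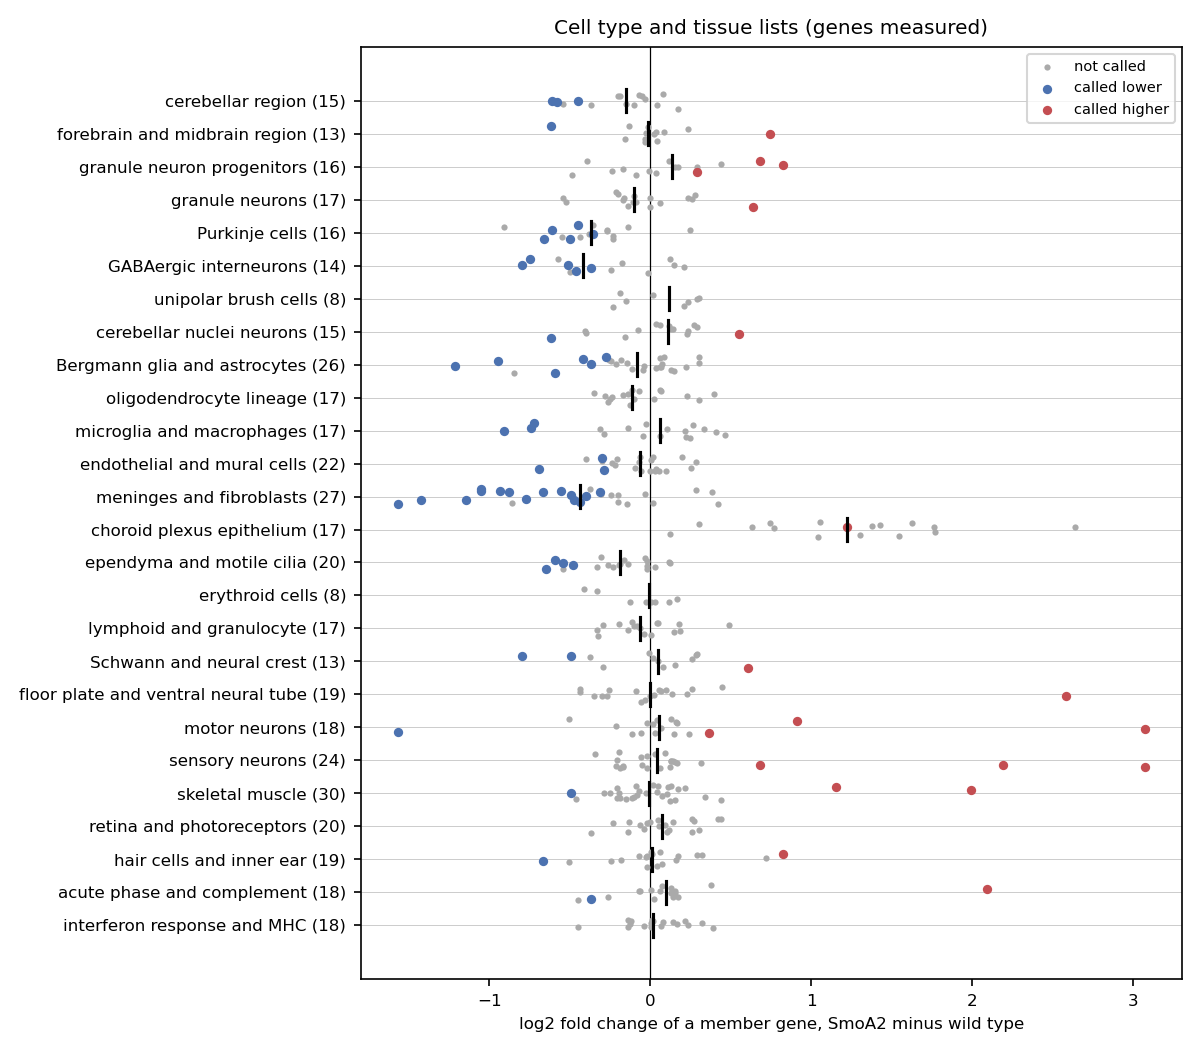
Each point is a measured gene of a cell type or tissue list (rows, with the number of genes measured), placed by its log2 fold change, SmoA2 minus wild type, on the x axis; red and blue points were called higher or lower, grey points were not called, and black bars are list medians. Falls gather in the meningeal, Purkinje and GABAergic rows, while rows such as skeletal muscle and sensory neurons hold a few large rises around a median near 0; in the choroid plexus row all 17 genes lie above 0 and 1 is called.

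Genes of the choroid plexus, the epithelium of the ventricles that makes cerebrospinal fluid, had positive log2 fold changes in all 17 cases, and 1 of them was called (Tmem72, 2.33-fold, adjusted p = 0.0497). Wild type replicate 3 lay below every other array in most of these genes. Transthyretin (Ttr) read 11.39, 11.26 and 4.95 in wild type and 11.74, 11.84 and 11.93 in SmoA2, Kl, the klotho gene, 7.36, 7.21 and 5.17 in wild type and 7.74, 7.74 and 7.91 in SmoA2, and the ion channel gene Clic6 8.52, 8.31 and 6.31 in wild type and 9.18, 9.22 and 9.37 in SmoA2. The mean level of the list was 8.39, 8.30 and 6.46 on the wild type arrays and 8.80, 8.89 and 9.08 on the SmoA2 arrays. In 24 genes that array lay at least 1 log2 unit below each of the other 5, and 14 of the 24 belong to the list. Among the others were Cldn1, Trpm3, Htr2c and the defensin genes Defb9, Defb10 and Defb11. Of the 25 genes that differed at least 2-fold between the groups without being called, 17 had this pattern. The part of this array in the other results was tested only by leaving it out. The call of Tmem72 held, of the 6 fits with 1 array fewer, only in that without wild type replicate 3 (highest adjusted p 0.138).

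Without wild type replicate 3 the median of the choroid plexus list was 0.56 and 8 of its 17 genes were called, all higher. Ttr then gave 0.51 ± 0.08 (adjusted p = 0.0247), Clic6 0.84 ± 0.11 (0.0125), Folr1 0.88 ± 0.14 (0.0276) and Tmem72 0.87 ± 0.16 (0.0416). Kcnj13, Otx2 and Aqp1 remained without a call in that fit (adjusted p = 0.248, 0.272 and 0.117). With SmoA2 replicate 3 left out as well, 3 genes were called and the median was 0.50. With either other wild type array left out, or any 1 SmoA2 array, 0 or 1 of the 17 genes was called. Genes of ependyma and motile cilia went the other way. Of 20 measured, 4 fell and none rose, with a median of -0.19. Ccno, which drives the formation of many centrioles, read 7.85, 7.80 and 7.72 in wild type and 7.19, 7.25 and 6.98 in SmoA2 and fell by 0.65. Mcidas, its regulator, fell by 0.59 and Rsph1, a radial spoke protein, by 0.54, while Foxj1, the factor of all motile cilia, gave -0.19 ± 0.14 (adjusted p = 0.587). Further genes of the axoneme, Cfap65 (-0.69), Cfap58 (-0.75) and Drc3 (-0.44), fell too and were chosen after their values were seen. The call was lost for Mcidas without wild type replicate 2 or SmoA2 replicate 1 (highest adjusted p 0.0657) and Cfap58 without wild type replicates 1, 2 or 3 or SmoA2 replicate 1 (highest adjusted p 0.119). Any 1 array left out ended the call of Drc3 (highest adjusted p 0.148). Without both replicates numbered 3, no call was made for Rsph1 (adjusted p = 0.0572).

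**Figure D5:**
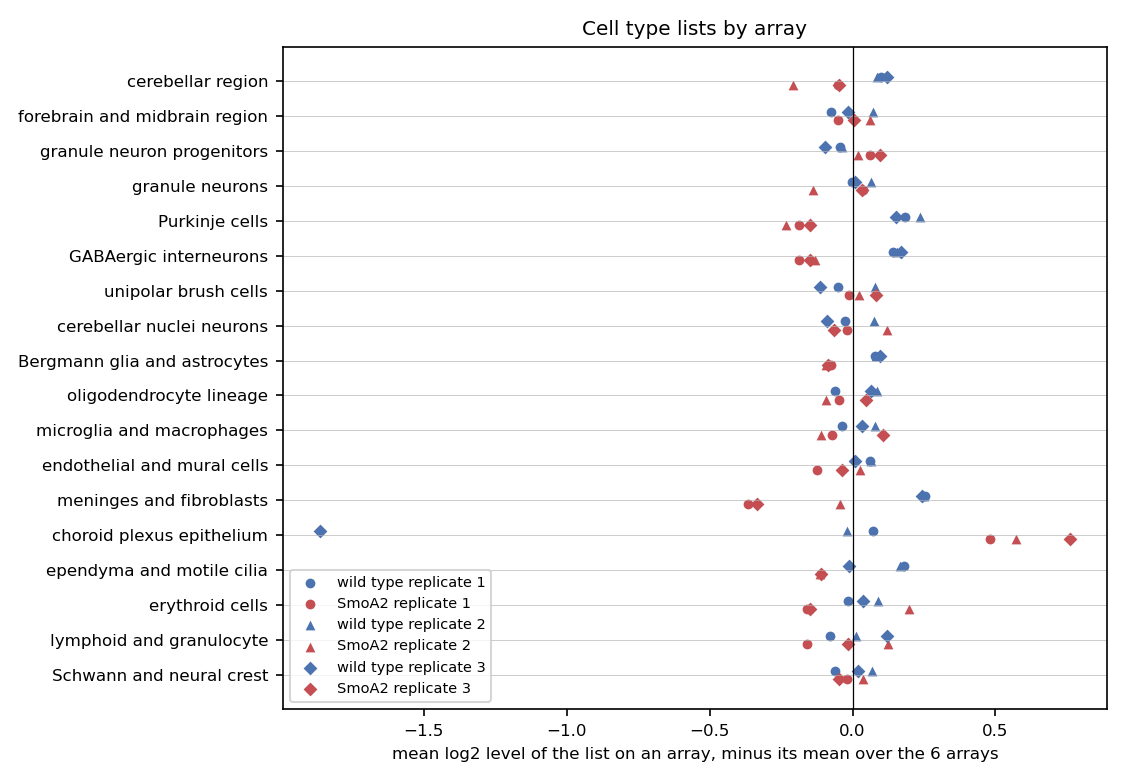
Mean log2 level of each cell type list (rows) on an array, minus the mean of that list over the 6 arrays (x axis); blue is wild type, red is SmoA2, and circle, triangle and diamond are replicates 1, 2 and 3. Wild type replicate 3 lies far below every other array in the choroid plexus row and close to the other wild type arrays in the Purkinje, GABAergic, Bergmann glia and meningeal rows, where the groups are apart.

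Among the signalling lists, that of BMP had only falls among its calls, as had those of retinoids and of chemokines and cytokines, given above. Hes1 and Sfrp1, given below with Notch and Wnt, are also in the list of Shh pathway and targets. In that list 9 of 21 genes rose and 3 fell (57.14% called, against 2.69% of all genes). Of 40 genes of the BMP and TGF-beta pathways, 7 fell (17.5%, against 1.73% of all genes) and none rose, with a median of -0.12. The count was 1 without wild type replicates 1 or 2 and 4 without wild type replicate 3 or SmoA2 replicates 1 or 3, and 1 without both replicates 3. The gene that kept its call in each fit with a count of 1 was Gdf10, given above with Bergmann glia. The Bmp ligands and Id genes named here had no call in those fits. The ligand Bmp2 read 6.78, 6.82 and 6.61 in wild type and 5.71, 6.24 and 5.60 in SmoA2 and was 1.85-fold lower, with SmoA2 replicate 2 nearest to wild type. Bmp6 and Bmp7 fell by 0.44 and 0.46, and the target genes Id1, Id3 and Id4 by 0.42, 0.39 and 0.28. A second, dimmer Id4 probe set was at 0.20 (adjusted p = 0.312 over all probe sets). No receptor or Smad was called. In the Wnt list of 49 genes, with a median of 0.009, the secreted inhibitors moved in both directions. Sfrp2 read 8.31, 8.20 and 8.20 in wild type and 9.44, 9.50 and 9.54 in SmoA2 and rose 2.39-fold (adjusted p = 2.11e-05), Sfrp1 rose 1.47-fold and Wif1 fell. The ligand Wnt9a fell by 0.35, and Axin2 and Lef1, targets of canonical Wnt signals, had no call. Of 24 Notch genes, the effector Hes1 (1.63-fold) and the ligands Dll3 (1.66-fold) and Jag1 (1.25-fold) rose, and the median was 0.02. These rises were 12.5% of the list, against 0.961% of all genes. With 1 array fewer, the threshold was missed by Bmp2 without wild type replicates 1 or 2 or SmoA2 replicates 1 or 3 (highest adjusted p 0.09), Bmp6 without wild type replicates 1, 2 or 3 or SmoA2 replicate 1 (highest adjusted p 0.109), Id1 without wild type replicates 1 or 2 or SmoA2 replicate 1 (highest adjusted p 0.102) and Id3 without wild type replicates 1 or 2 (highest adjusted p 0.0601). The calls of Bmp7 and Wnt9a held, of the 6 fits with 1 array fewer, only in that without SmoA2 replicate 2 (highest adjusted p 0.172). The call of Jag1 held, of the 6 fits with 1 array fewer, only in that without wild type replicate 1 (highest adjusted p 0.0951). Each of the 6 fits without 1 array ended the call of Id4 (highest adjusted p 0.128). Leaving out both replicates 3 ended the call of Sfrp1 (adjusted p = 0.0533).

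Growth factor genes were also divided. Of 47 genes of FGF and other receptor tyrosine kinase pathways, 3 rose and 6 fell (19.15% called, against 2.69% of all genes). Fgfr4, a receptor, read 7.32, 7.40 and 7.42 in wild type and 8.07, 8.08 and 8.11 in SmoA2 and rose 1.63-fold. Pdgfa, the ligand that oligodendrocyte progenitors need, read 9.46, 9.57 and 9.39 in wild type and 10.13, 10.18 and 10.27 in SmoA2 and rose 1.65-fold, whereas Pdgfc fell by 0.41. Igfbp5, a binding protein of insulin-like growth factors, read 11.75, 11.61 and 11.80 in wild type and 11.04, 11.19 and 10.88 in SmoA2 and fell by 0.68, and Igf2 fell by 0.55. Of the Scube proteins, which help release Shh from the cells that make it, Scube1 fell by 0.53 and Scube2 by 0.55, both chosen after their values were seen. Genes of thyroid hormone and steroid response gave 0 calls in limma among 17 (5 at an unadjusted p under 0.05), the lowest p being that of the deiodinase Dio2 (-0.53 ± 0.12, adjusted p = 0.0505). The call of Igf2 held, of the 6 fits with 1 array fewer, only in that without SmoA2 replicate 2 (highest adjusted p 0.125). The fit without both replicates 3 did not call Pdgfc (adjusted p = 0.0854) and Scube2 (adjusted p = 0.081).

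Of 58 genes of axon guidance and neuronal migration, 4 rose and 6 fell (17.24% called, against 2.69% of all genes). Sema3e, a semaphorin, read 5.02, 5.07 and 4.99 in wild type and 6.58, 6.82 and 6.89 in SmoA2 and rose at least 3.34-fold (adjusted p = 0.00431), its wild type level being within background. Slit1, a repellent, rose 1.53-fold and Draxin, a netrin-binding guidance protein, 1.39-fold. Both groups of arrays were separated in these genes. Reelin (Reln), which granule cells release, and Cxcr4, the receptor for Cxcl12, had no call. Among 51 cadherins and adhesion genes 5 rose and 2 fell (13.73% called, against 2.69% of all genes). Cdh20 read 11.37, 11.35 and 11.33 in wild type and 12.27, 12.16 and 12.15 in SmoA2 and rose 1.79-fold (adjusted p = 0.000105). Cdh15 read 6.96, 7.24 and 7.06 in wild type and 8.16, 7.95 and 8.60 in SmoA2, and Pcdh8, a protocadherin, fell by 0.56. None of the 22 genes of the protocadherin clusters was called in limma (6 at an unadjusted p under 0.05). Fits with 1 array fewer did not call Slit1 without wild type replicates 2 or 3 or SmoA2 replicates 1 or 2 (highest adjusted p 0.0702). The call of Draxin held, of the 6 fits with 1 array fewer, only in that without SmoA2 replicate 2 (highest adjusted p 0.118). Without both replicates numbered 3, no call was made for Sema3e (adjusted p = 0.0698) and Pcdh8 (adjusted p = 0.0775).

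In the lists of receptors, channels, transmitters and synaptic proteins between 5.26% and 14.8% of the genes were called, against 2.69% of all genes. Their medians stayed between -0.11 and 0.02. Over all lists, 157 of 1362 measured genes were called. Of 27 glutamate receptors and transporters, Grin2c rose and 3 fell. Gria1, an AMPA receptor subunit that Bergmann glia also carry, read 11.19, 11.13 and 11.25 in wild type and 10.53, 10.42 and 10.63 in SmoA2 and fell by 0.66, and its other probe set fell by 0.85. Slc17a8, a vesicular glutamate transporter, fell by 0.66 and the receptor Grm3 by 0.40. Of 49 potassium channel genes, 5 fell and none rose, among them the small-conductance calcium-activated channels Kcnn2 (by 0.44) and Kcnn3 (by 0.64) and the inward rectifier Kcnj6 (by 0.55). A dimmer probe set of Kcnn3 was at 0.05 and not called, and the 4 other probe sets of Kcnj6 were at -0.25 to -0.43, with 1 of them called. Of 38 sodium and calcium channel genes, the calcium channel subunit Cacna2d1 rose 1.43-fold and the sodium channel subunit Scn2b fell by 0.30. Of 39 synaptic genes, Cbln4 and Syt4 (1.28-fold) rose and Camk2a fell by 0.74 on the probe set used. A second Camk2a probe set of like level gave -0.16 and was not called, and the other 3, at wild type means of 4.23 to 5.74, gave -0.05 to 0.03. No call was made for Slc17a8 without wild type replicate 1 (highest adjusted p 0.0515), Grm3 without wild type replicates 1 or 2 (highest adjusted p 0.058), Kcnj6 without wild type replicates 1 or 2 or SmoA2 replicates 2 or 3 (highest adjusted p 0.0783), Syt4 without wild type replicates 1, 2 or 3 (highest adjusted p 0.062) and Camk2a without wild type replicate 2 (highest adjusted p 0.0566). The call of Kcnn3 held, of the 6 fits with 1 array fewer, only in that without SmoA2 replicate 2 (highest adjusted p 0.125). Any 1 array left out ended the call of Scn2b (highest adjusted p 0.163).

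Neuropeptide genes gave 3 calls among 40. Adcyap1, the gene of the peptide PACAP, read 8.06, 8.35 and 7.75 in wild type and 9.02, 9.06 and 9.02 in SmoA2 and rose 1.98-fold (adjusted p = 0.00707). Grp, gastrin-releasing peptide, read 8.92, 9.13 and 8.91 in wild type and 8.06, 7.85 and 8.13 in SmoA2 and was 1.97-fold lower (adjusted p = 0.00125), and Tac2, neurokinin B, fell by 0.63. All SmoA2 arrays lay on one side of wild type in each. Of 30 monoamine and acetylcholine genes, the receptor Htr1a fell by 0.49 and the nicotinic subunit Chrna3 rose 1.28-fold. Synaptic organisers outside the lists, chosen after their values were seen, moved in opposite directions: the neurexophilin Nxph3 rose 1.77-fold and Nxph4 fell by 0.60, while C1ql1, the ligand that climbing fibres present to Purkinje cells, rose 1.30-fold. Itpka, a kinase of dendritic spines, fell by 0.50. The call was lost for Nxph3 without wild type replicates 1, 2 or 3 or SmoA2 replicate 1 (highest adjusted p 0.117) and C1ql1 without wild type replicates 1 or 3 or SmoA2 replicates 1 or 3 (highest adjusted p 0.109). The call of Chrna3 held, of the 6 fits with 1 array fewer, only in that without wild type replicate 3 (highest adjusted p 0.106).

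Among genes of metabolism, 2 of 20 in the glycolysis list and 3 of 25 in the cholesterol and fatty acid list were called, shares above the 2.69% of all genes. Hexokinase 2 (Hk2) read 8.34, 8.34 and 8.37 in wild type and 9.43, 9.34 and 9.09 in SmoA2 and rose 1.91-fold (adjusted p = 0.00114), with its other probe set at 0.58, while the only other call among the 20 genes of glycolysis and hypoxia was that of Car9, described below, and the median was -0.01. Among carbonic anhydrases, which hydrate carbon dioxide, Car2 rose 1.91-fold and Car3 2.22-fold, both chosen after their values were seen, and Car9, a target of hypoxia, fell by at least 0.69 to a level within background. Igf2bp1, an RNA-binding protein of progenitors, rose on all of its 3 probe sets (1.73-fold on the one used), and Eif4ebp1, an inhibitor of translation initiation, 1.76-fold. Of 25 genes of cholesterol and fatty acid synthesis 3 fell, Scd1 (-0.35), Mvd (-0.30) and Fasn (-0.26), 22 of the 25 had no call, and the median was -0.12. Trp73, of the p53 family, read 7.84, 8.0 and 7.70 in wild type and 6.33, 6.48 and 6.40 in SmoA2 and was 2.72-fold lower, but the second, dimmer probe set was at -0.25 (adjusted p = 0.477 over all probe sets). No p53 target among 26 genes of that list was called, and the proapoptotic BH3-only gene Hrk, chosen after its values were seen, rose 1.46-fold. None of 44 ribosomal protein, 73 respiratory chain or 35 proteasome genes was called in limma (8, 1 and 0 at an unadjusted p under 0.05). Hspa1b, an inducible heat shock protein, fell by 0.62 and was the only call among 26 immediate early and stress genes. With 1 array fewer, the threshold was missed by Car9 without wild type replicate 2 or SmoA2 replicate 1 (highest adjusted p 0.0639) and Scd1 without wild type replicates 2 or 3 or SmoA2 replicates 1 or 3 (highest adjusted p 0.0874). The call of Mvd held, of the 6 fits with 1 array fewer, only in that without SmoA2 replicate 3 (highest adjusted p 0.143). Each of the 6 fits without 1 array ended the call of Fasn (highest adjusted p 0.115). Leaving out both replicates 3 ended the call of Igf2bp1 (adjusted p = 0.0531).

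Among called genes with the highest wild type levels, changes were below 2-fold. Ptch1, at a wild type mean of 13.08, led them, followed by Ptgds, Fat1, an atypical cadherin (1.23-fold higher), Etv5, a target of FGF signals (1.28-fold higher), Igf2, Tnc, a matrix glycoprotein (1.29-fold lower), and Syt4. Psat1, an enzyme of serine synthesis, rose 1.29-fold from a wild type mean of 12.01. At the low end, 20 rises and 17 falls had a wild type mean within background. Saa2, an acute-phase protein, read 4.21, 4.41 and 4.10 in wild type and 6.08, 6.66 and 6.25 in SmoA2 and rose at least 4.26-fold, whereas 16 of 18 acute-phase and complement genes had no call and Serping1, the C1 inhibitor, fell by 0.37. Of 864 olfactory receptors, a family of the nasal epithelium, 849 lay within background in both groups and 2 were called. Of the 515 called genes, 157 belonged to the 58 lists, which held 1362 measured genes, and 358 to none. Fits with 1 array fewer did not call Fat1 without wild type replicates 1 or 2 or SmoA2 replicates 1 or 2 (highest adjusted p 0.0876), Etv5 without wild type replicates 1 or 2 or SmoA2 replicate 1 (highest adjusted p 0.0769), Tnc without wild type replicates 1, 2 or 3 (highest adjusted p 0.0876), Psat1 without wild type replicates 1, 2 or 3 or SmoA2 replicate 1 (highest adjusted p 0.105) and Serping1 without wild type replicates 1 or 2 (highest adjusted p 0.0507).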

How the data were processed

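RNA of whole cerebellum was measured on 9 arrays, 3 per group. The deposited values are intensities on a linear scale, normalized by the authors with RMA per the submitters' processing notes; its version and settings are not given in the sources used here. Their log2 was taken with no further normalization. Of 38385 probe sets, 24478 carried 1 gene symbol, 65 several and 13842 none. Only those with 1 symbol were named, 1 probe set per gene.

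The 3 groups were fitted together in limma 3.58.1 (R 4.3.3, lmFit and eBayes), which left 6 residual degrees of freedom, and the contrast SmoA2 minus wild type was adjusted by Benjamini-Hochberg over 19147 genes. Every adjusted p in the text comes from such a fit, and errors are standard errors of the log2 fold change. The number of arrays limits the precision. The code was tested on simulated data. The lists were compared by counts and medians, with no test of a list.

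The genes and lists were chosen with earlier results of these data known. Named genes were the 15 largest rises and falls, up to 4 called members of each list by p (where none was called, the 1 with the smallest p), the genotype genes, and the 12 called genes with the highest wild type level and the 12 with the smallest adjusted p. Other genes named, such as Lmo1, Foxo6, Kirrel2, Skor1, Tfap2c, Eif4ebp1 and uncalled defining markers, were chosen after their values were seen. Alternatives were another probe set rule, filter, scaling, pseudocount, variance model, covariate (sex), threshold or set of arrays.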

Additional observations from a re-analysis of the deposited data

Results flagged for a closer look

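Probe sets with no single gene symbol were not part of the comparison above. Tested in the same way, 122 of 13907 such probe sets (0.877%) were called, 53 higher and 69 lower in SmoA2. Their log2 fold changes ranged from -1.54 to 2.34. They were singled out because they carry a difference between the groups in data the comparison left out.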

How the results depend on the processing

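Fewer arrays, or a stricter threshold, gave lower counts. Against 515 calls (184 higher, 331 lower), a fit of only the 6 arrays compared called 235 (102 and 133), of which 230 were among the 515, and a fit without wild type replicate 3 and SmoA2 replicate 3 called 215 (101 and 114), of which 187 were. Leaving out 1 array at a time gave 234 to 445 calls, 109 to 170 higher and 125 to 293 lower. The lowest count was that without wild type replicate 2, followed by 253 calls (110 and 143) without wild type replicate 1. There were 297 calls without SmoA2 replicate 1 (174 lower) and 323 without wild type replicate 3 (182 lower). With sex as a covariate 366 genes were called, 345 of them among the 515. An adjusted p of 0.01 left 187 calls (85 and 102), and a 2-fold minimum 49 (31 and 18). More falls were called with only genes above background (503) and with an intensity trend and robust eBayes (499). With the probe set of highest variance, Nkx2-2 gave 0.26 (adjusted p = 0.52) and Slc16a1 0.20 (adjusted p = 0.466), opposite in sign to the values of the probe sets used; the cause was not tested. Of 3907 values of the named genes under other settings, 3189 kept direction and side of the threshold, 657 lost the call, 59 gained one and 2 changed sign. No paired analysis was possible because the labels give no replicate numbers, those used here being the order of deposit.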
